A study of Mus musculus with 15 samples.

Results

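Messenger RNA was profiled in wild-type (WT) cells labelled as primary proximal tubule cells of mouse kidney, and the account here describes what those cells expressed. All libraries of WT cells were taken, which are 8 of the 15 libraries of the series. The cells came from C57BL/6 mice and had been passaged once in culture. The other 7 libraries, from cells of knockout mice, were not used. Male WT (n = 4) and Female WT (n = 4) are each 1 pool, made by combining cells of 3 to 4 mice and dividing the mixture into 4 technical replicates, per the labels. The labels give no age and no treatment, and both pools share the strain, the WT genotype and the culture. The figure after each ± is the SD of a pool's 4 libraries, which is technical spread and covers neither mice nor separate cultures. Values of both pools stand side by side, with no comparison of the pools, because sex and pool cannot be told apart. No freshly isolated tubule was used here, so a low level is a level in culture and no change was measured.

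The proximal tubule is the first stretch of the nephron after the glomerulus. Its cells take back most of the filtered salt, glucose, phosphate, amino acids and protein through transporters and endocytic receptors of a dense brush border, secrete organic acids and bases, make glucose and ammonia, and burn fatty acids. By position they are divided into segments S1, S2 and S3, each with its own transporters. Tubule cells that are injured or grown on plastic are known to express genes of dedifferentiation, such as those for osteopontin, vimentin and simple keratins.

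Library totals ran from 17981749 to 30896637 counts, and 3 counts, taken as the floor, corresponded to 0.0971 to 0.167 CPM (counts scaled to a library sum of 1000000). Of 24421 listed genes, 12193 (49.9%) were at 1 CPM or more in all 8 libraries, the level counted as detected. Of these, 9117 were at 10 CPM or more, 2154 at 100 CPM or more and 61 at 1000 CPM or more. Counts of detected members of each list and family below stand against the share of 49.9% over all listed genes. At the other end, 5769 genes had no count in any library. Levels of different genes are compared only as TPM, which are counts per length of merged exons, scaled to the same sum. The median over genes was 2.40 TPM for all genes with a length and 30.0 TPM for the detected ones. Across the detected genes, which are not independent replicates, log2(CPM + 1) correlated between libraries at 0.996 to 0.998 within a pool and at 0.991 to 0.993 between pools. The median coefficient of variation within a pool was 12.1% in Male WT and 11.9% in Female WT for genes of 1 to 10 CPM, and 3.24% and 2.22% for genes of 100 to 1000 CPM.

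The 7 genes used to check the label differed widely in level. Spp1, which encodes osteopontin, a secreted phosphoprotein of injured tubules, was at 6133, 6720.0, 5907 and 5989 CPM in the Male WT libraries and 6217, 6429, 6314 and 6211 CPM in the Female WT libraries. Krt8 and Krt18, the keratin pair of simple epithelia, were at 1783 ± 64.2 CPM in Male WT and 1566 ± 23.3 CPM in Female WT and at 1243 ± 49.6 CPM in Male WT and 1090.3 ± 14.3 CPM in Female WT. Vim, the intermediate filament vimentin, was at 1650.5 ± 83.7 CPM in Male WT and 1510.4 ± 45.3 CPM in Female WT. All 4 genes were above 1000 CPM in every library. Ggt1, the brush border enzyme that splits glutathione, was at 50.6, 48.6, 44.9 and 46.5 CPM in the Male WT libraries and 73.4, 77.8, 65.5 and 62.0 CPM in the Female WT libraries. Lrp2 encodes megalin, the giant receptor that takes up filtered protein, and was at 19.0, 20.4, 22.2 and 22.0 CPM in the Male WT libraries and 20.7, 17.8, 21 and 19.6 CPM in the Female WT libraries. Cubn encodes cubilin, the partner of megalin, and was at 7.22, 5.67, 6.69 and 6.62 CPM in the Male WT libraries and 5.87, 6.32, 5.84 and 6.11 CPM in the Female WT libraries. Per length, Spp1 was first among 23978 genes with 15868 TPM, while Ggt1 (72.0 TPM) was at rank 2938, Lrp2 (5.11 TPM) at rank 10820 and Cubn (1.77 TPM) at rank 12401. The receptors that define the proximal tubule were thus detected in every library, at levels under the median of the detected genes. Further genes that define the mature proximal tubule, Slc34a1, Slc9a3, Slc22a6 and Slc22a8, were at 0 or at the floor in every library (3 counts or fewer). These markers, which are not among the 7, were thus under the level counted as detected. In bulk RNA, fewer cells of a type and less RNA per cell cannot be told apart.

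**Figure D1:**
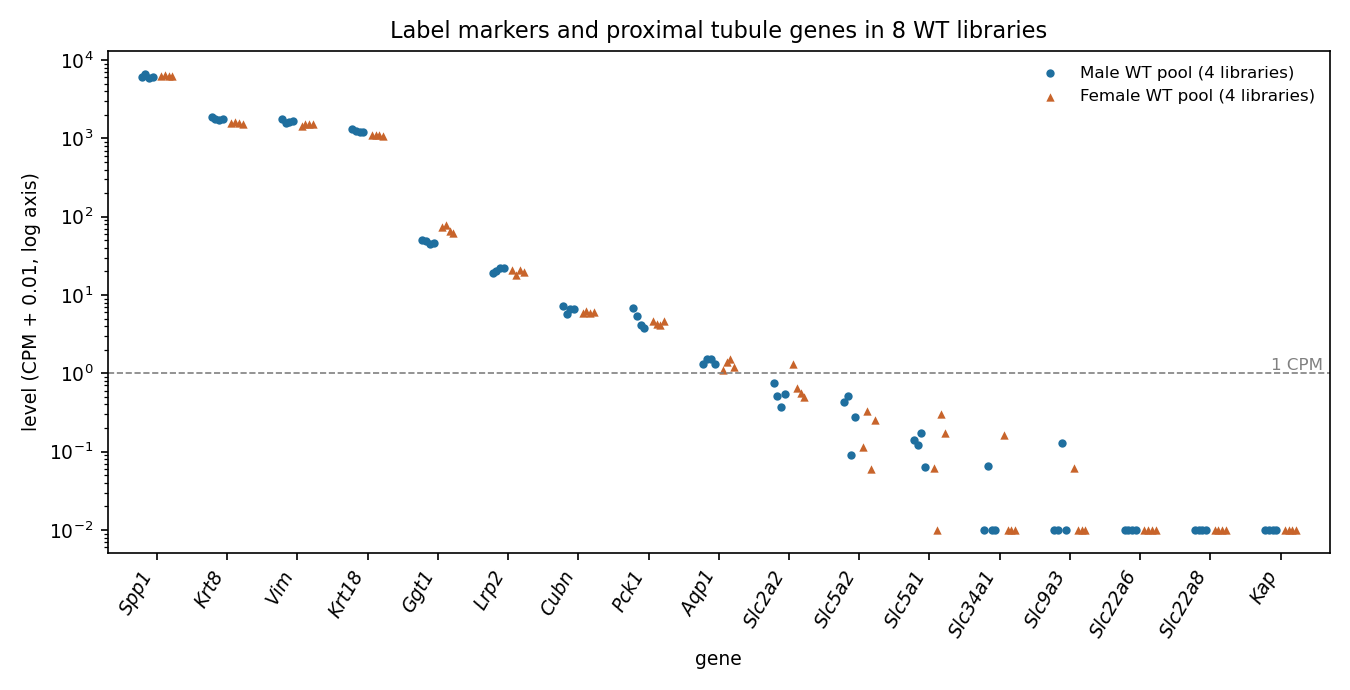
Levels of the 7 label markers and of 10 proximal tubule genes (x axis) in each of the 8 WT libraries, as CPM + 0.01 on a log axis. Each point is 1 library, circles for the Male WT pool and triangles for the Female WT pool. Spp1 lies between 5907 and 6720.0 CPM and Cubn between 5.67 and 7.22 CPM, and the points at the bottom are libraries with no count, as for Slc22a6, Slc22a8 and Kap.

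Fn1, the matrix protein fibronectin (chromosome 1, 71585520 to 71653200 on GRCm38), took the most reads, at 25866, 25377, 26148 and 27599 CPM in the Male WT libraries and 25839.7, 25775, 25926 and 27653 CPM in the Female WT libraries. Per length, Fn1 had 9425 TPM, less than Spp1 and the elongation factor gene Eef1a1 (10670.3 TPM). Actb, cytoplasmic beta actin, followed with 9379 TPM, then Clu, the secreted chaperone clusterin, with 8462 TPM and Thbs1, the matrix protein thrombospondin 1, with 7124 TPM. Itgb1, the beta chain of integrin receptors for fibronectin and collagen, was at 4339 TPM. Plau, the protease urokinase, was at 3094 TPM. Ctgf and Cyr61, matrix-associated growth regulators, were at 4149.9 and 2059 TPM.

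Further down the first 25 stood Igfbp7, a secreted binding protein of growth factors, at 3989 TPM, Tnc, the matrix protein tenascin C, at 3354 TPM, Ctsd, a lysosomal protease, at 3353 TPM, and S100a11, a calcium-binding protein, at 3045 TPM. The contractile genes Tagln, Acta2 and Tpm1 were at 3044, 3028 and 2881 TPM. Further members of the first 25 were Rplp1, Ftl1, Eef2, Hsp90ab1, Tmsb4x, Krt8, Krt18 and Cldn4, which span 2767 to 4956 TPM. The next 10 genes outside ribosomal proteins and elongation factors were Ly6a, Lgals1, Actg1, Serpinh1, Actn1, Sparc, Tmsb10, Cyr61, Tpm4 and Myh9, from 1988 to 2536 TPM. Actins, thymosins, Ftl1 and ribosomal protein genes have near-identical copies, so their counts are uncertain. The 10 most abundant genes held 8.14% to 8.49% of the counts of a library and the 100 most abundant held 20.4% to 20.9%. Of the proximal tubule function genes described next, those of high TPM included Lamp1 (rank 105) and Ezr (rank 355).

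The 9 lists of proximal tubule function hold 149 genes, of which 81 (54.4%) were detected, against 49.9% of all listed genes. Of the 149 genes, 16 were at 100 CPM or more in every library, 33 between 10 and 100, 32 between 1 and 10, 39 above the floor but under 1 CPM in at least 1 library, and 29 at the floor or under in every library, including 7 with no count at all. The median of the union was 2.65 TPM. The lists differed in how many members were detected. The CPM ranges given for members are over the 8 libraries.

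Endocytosis was the list with the most members detected together with fatty acid oxidation, at 14 of 16 genes and a median of 56.1 TPM. Its highest members were general parts of the endosome and lysosome. Lamp1, a lysosomal membrane protein, was at 546 to 568 CPM (median 561), Ctsb, a lysosomal protease, at 455 to 487 CPM (median 468), Rab11a, a recycling GTPase, at 147 to 186 CPM (median 169.6), and Ehd1, a membrane-tubulating ATPase, at 143 to 184 CPM (median 162). The lowest by TPM were receptors of the apical membrane and a partner protein. Folr1, the folate receptor, was at 0.876 to 2.01 CPM (median 1.77), Amn, the amnionless subunit that carries cubilin to the membrane, at 0.424 to 0.979 CPM (median 0.707), and Cubn at 5.67 to 7.22 CPM (median 6.21). Per length, the range within the list ran from 1.53 TPM for Amn to 876 TPM for Lamp1.

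Brush border genes also spanned a wide range, with 12 of 21 detected and a median of 1.66 TPM. Structural genes of the microvillus differed in level. Ezr, ezrin, which ties actin to the membrane, was at 301 to 317 CPM (median 309.9), and Slc9a3r1, the NHERF1 scaffold, at 126 to 144 CPM (median 139). Espn and Myo7b were low, at 1.85 to 2.97 CPM and 2.70 to 6.12 CPM. Vil1 and Pdzk1 were not detected, at 0.201 to 0.805 CPM and 0.0804 to 0.540 CPM. Enpep, the aminopeptidase A, was at 76.9 to 114 CPM (median 98.8). The digestive enzymes Mep1a and Mep1b (meprins), Treh (trehalase) and the microvillar cadherin Cdhr2 were at the floor or under in every library, with 1, 1, 2 and 2 counts over all 8.

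Sodium, glucose and phosphate transport had 10 of 22 genes detected, with a median of 0.630 TPM. Atp1b1, a beta subunit of the sodium pump that drives these carriers, was at 141 to 179 CPM (median 149). Slc20a2, a phosphate carrier of many tissues, was at 68.7 to 86.3 CPM (median 77.3), and Car2, the cytosolic carbonic anhydrase, at 18.1 to 23.0 CPM (median 20.4). Several other carriers of the list stood at the other end. Not all carriers were that low, since Slc13a2, Slc4a4 and Slc26a1 were detected. Slc34a1, the main renal phosphate carrier, had 4 counts over all 8 libraries, and Slc9a3, the sodium-proton exchanger NHE3, also had 4. Slc34a3, Slc13a1 and Slc13a3, carriers of phosphate, sulfate and dicarboxylates, had 1, 4 and 1. Slc5a2, the glucose carrier SGLT2, was at 0.421, 0.501, 0.0805 and 0.265 CPM in the Male WT libraries and 0.103, 0.324, 0.0495 and 0.241 CPM in the Female WT libraries. Aqp1, the constitutive water channel of this segment, was at 1.29, 1.5, 1.53 and 1.32 CPM in the Male WT libraries and 1.08, 1.40, 1.53 and 1.21 CPM in the Female WT libraries. All 8 values of Aqp1 were above 1 CPM, and none of Slc5a2 was.

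Amino acid and organic ion transporters were the least detected lists. Of amino acid and peptide carriers 4 of 14 were detected, with a median of 0.253 TPM. Slc3a2, the shared heavy chain of amino acid exchangers, was at 141 to 159.8 CPM (median 145) and Slc7a7, a basolateral light chain, at 12.0 to 15.8 CPM (median 13.7). Slc16a10, an aromatic amino acid carrier, was at 22.1 to 29.3 CPM (median 24.3) and Slc15a2 at 1.40 to 4.28 CPM (median 2.99). Slc3a1, the heavy chain of cystine uptake, was at 0.809 to 1.83 CPM (median 1.27) and so was not detected in every library. Slc6a20b and Slc7a13 had no count, and Slc36a2 had 2 over all libraries.

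Of the organic ion transporters 5 of 19 were detected, with a median of 0.135 TPM. Abcc4, the efflux pump MRP4, was at 316, 418, 386 and 365 CPM in the Male WT libraries and 300.3, 298, 293 and 308 CPM in the Female WT libraries. It was the highest of the list in TPM (220.3), and Abcg2, the efflux pump BCRP, followed at 32.6 to 41.9 CPM (median 37.1). Slc22a5 and Abcb1a, the carnitine carrier OCTN2 and a P-glycoprotein, were at 7.64 to 11.1 CPM (median 9.67) and 3.58 to 10.7 CPM (median 6.65). The uptake carriers Slc22a6 and Slc22a8 (OAT1 and OAT3), Slc22a2 (OCT2) and Slc22a12 (the urate carrier URAT1) had no count among 175603941 over the 8 libraries, which allows up to 0.0171 CPM for counting error only. The pair with the highest levels are efflux pumps, and all 4 members with no count are uptake carriers. The list as a whole does not divide this way. The uptake carriers Slc22a5 and Slc22a4 (1.43 to 2.65 CPM) were detected. The efflux carriers Abcc2 (0.206 to 0.453 CPM) and Slc47a1 (0 to 0.206 CPM) were not.

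In gluconeogenesis and ammoniagenesis 9 of 11 were detected, with a median of 8.84 TPM. Glud1, glutamate dehydrogenase, was at 171 to 205 CPM (median 185), Pck2, the mitochondrial phosphoenolpyruvate carboxykinase, at 84.5 to 93.4 CPM (median 85.4), and Slc37a4, the glucose-6-phosphate carrier of the endoplasmic reticulum, at 7.52 to 9.51 CPM (median 9.07). The lowest were Fbp1, fructose-1,6-bisphosphatase, at 0.648 to 1.65 CPM (median 1.21), Slc38a3, the glutamine carrier, at 1.24 to 2.17 CPM (median 1.63) and G6pc, the glucose-releasing phosphatase, at 0.396 to 0.779 CPM (median 0.606).

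In fatty acid oxidation 14 of 16 were detected, with a median of 22.0 TPM. The mitochondrial dehydrogenases Acadl and Acadvl were at 129.7 to 137 CPM (median 135) and 87.5 to 97.8 CPM (median 93.2), and the carnitine transferase Cpt2 at 34.6 to 41.6 CPM (median 39.4). Cyp4a10, Slc27a2 and Acot12 were lowest, at 0.810 to 2.06 CPM (median 1.07), 1.51 to 2.01 CPM (median 1.66) and 0.522 to 0.940 CPM (median 0.642). Cyp4a10 has near-identical neighbours, which makes its count uncertain. Vitamin D and hormone genes were detected in 7 of 11 cases. Pth1r, the parathyroid hormone receptor, was at 78.9 to 103 CPM (median 90.3), Fgfr1 at 147 to 199 CPM (median 176), Rxra at 63.1 to 67.6 CPM (median 64.3) and Ghr, the growth hormone receptor, at 44.1 to 54.1 CPM (median 49.4). Cyp2r1 was at 0.501 to 1.13 CPM (median 0.774), Cyp27b1, which makes active vitamin D, at 0.258 to 0.723 CPM (median 0.399), and Cyp24a1, which breaks it down, at the floor with 9 counts over all libraries. Of the genes for amino acid and xenobiotic metabolism 6 of 19 were detected. Asl, argininosuccinate lyase, was at 34.3 to 39.6 CPM (median 37.8), and Cyp2e1 at 6.16 to 9.45 CPM (median 8.23). Kap, the kidney androgen-regulated protein, which is known from mouse proximal tubule, had no count in any library.

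**Figure D2:**
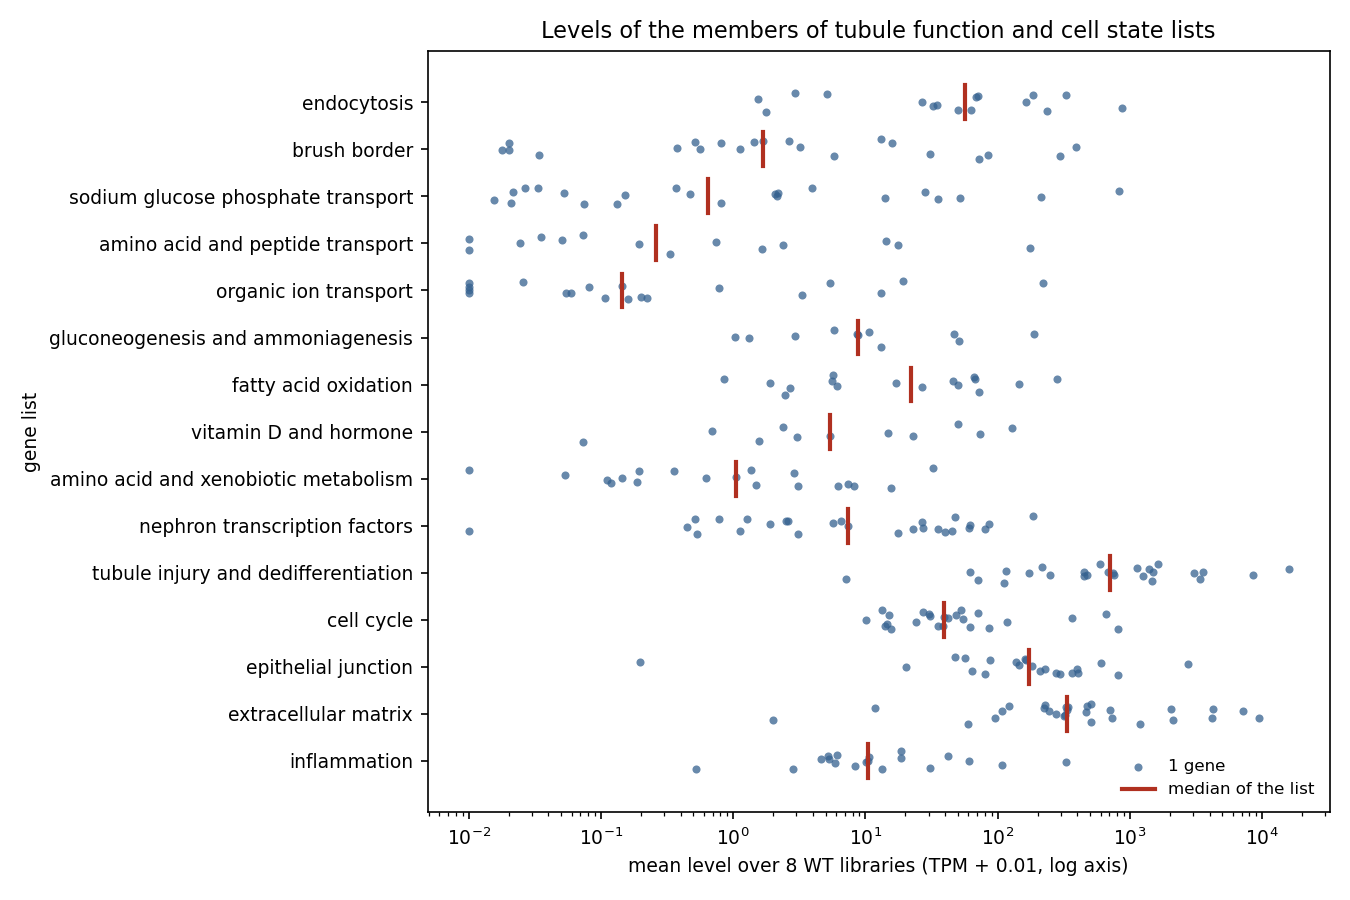
Mean level over the 8 WT libraries, as TPM + 0.01 on a log axis (x axis), of the members of the 9 tubule function lists and 6 cell state lists (y axis). Each point is 1 gene and the bar is the median of the list. Transport lists have medians under 1 TPM and the injury, junction and matrix lists above 100 TPM.

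Markers of S1, S2 and S3 were each detected in part. Of 25 markers, 8 were detected and 9 were at the floor or under. In S1, 3 of 8 were detected, led by Slc4a4, the basolateral bicarbonate carrier, at 54.5 to 87.8 CPM (median 74.1), Slc7a7 at 12.0 to 15.8 CPM (median 13.7) and Gatm, the first enzyme of creatine synthesis, at 4.17 to 6.44 CPM (median 6.22). Slc2a2, the glucose carrier GLUT2, was at 0.744, 0.501, 0.362 and 0.530 CPM in the Male WT libraries and 1.29, 0.648, 0.544 and 0.482 CPM in the Female WT libraries. In S2, 1 of 6 was detected, Cyp2e1, and Slc22a6 and Slc22a8 had no count. In S3, 4 of 11 were detected. Atp11a, a phospholipid flippase, was at 646 to 754 CPM (median 727) and 271 TPM. The other 3 were Acy3 (7.36 TPM), Agt (5.35 TPM) and Cyp7b1 (2.87 TPM). Slc7a13, the S3 carrier of amino acids, had no count. Atp11a, Slc4a4 and Gatm are known from other cell types too. Of the carriers on the segment lists, Slc5a2, Slc22a6, Slc34a1 and Slc7a13 were under 1 CPM in every library.

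The ratio of paired genes of related function was taken within each library, per length. Of 18 pairs, 13 had more than 3 counts for both genes in every library. In 11 of these the second gene as listed was the higher in all 8 libraries, and 8 of the 11 are described here. Pkm, the pyruvate kinase of most tissues, exceeded Pklr, that of liver and kidney, by a median of 569-fold (range 389 to 702) in TPM. Slc2a1, the general glucose carrier GLUT1, exceeded Slc2a2 by 702-fold (range 300.1 to 1011). Hk2, a hexokinase, exceeded G6pc by 159-fold (range 119 to 245). In each of these pairs the gene known from the mature proximal tubule was the lower in every library.

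Further pairs covered transport, junction and metabolic genes. Slc7a5 exceeded Slc7a8 by 205-fold (range 122 to 253), both being light chains of neutral amino acid exchangers, and Cldn1 exceeded Cldn2, the leaky claudin of the proximal tubule, by 49.4-fold (range 35.9 to 73.3). Pck2 exceeded Pck1, the cytosolic form used in gluconeogenesis, by 8.41-fold (range 5.95 to 9.97), Pfkp exceeded Fbp1 by 5.22-fold (range 3.41 to 9.37), and Cdh1 (E-cadherin) exceeded Cdh2 (N-cadherin, the main cadherin of the proximal tubule) by 5.02-fold (range 4.52 to 5.43). The lactate dehydrogenase pair went the other way. Ldhb was at 1374 to 1630.2 TPM and Ldha at 438 to 557 TPM, so Ldhb was higher in all 8 libraries, by 3.11-fold (range 2.62 to 3.58). For the sodium pump, Atp1b1 was at 193 to 244 TPM and Atp1b3 at 174 to 208 TPM, and neither was higher in all 8 libraries. The size of a ratio depends on the exon length used. With the length of the longest transcript the log2 ratio went from 9.15 to 10.03 for Pkm over Pklr, from 2.33 to 1.64 for Cdh1 over Cdh2 and from -1.63 to -1.03 for Ldha over Ldhb. Without length, Pfkp over Fbp1 went from 2.38 to 5.36. The order of the genes stayed the same in these 4 pairs.

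In the remaining 5 pairs at least 1 library had 3 counts or fewer, so no ratio is given, and 4 of them are described. Slc20a1 had 30670 counts over all libraries against 4 for Slc34a1. Slc1a5 had 5529 against 22 for Slc1a1, the renal glutamate carrier. Slc5a2 and Slc5a1, the glucose carriers of S1 and S3, had 44 and 22, and Aqp1 and Aqp3 had 238 and 3.

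**Figure D3:**
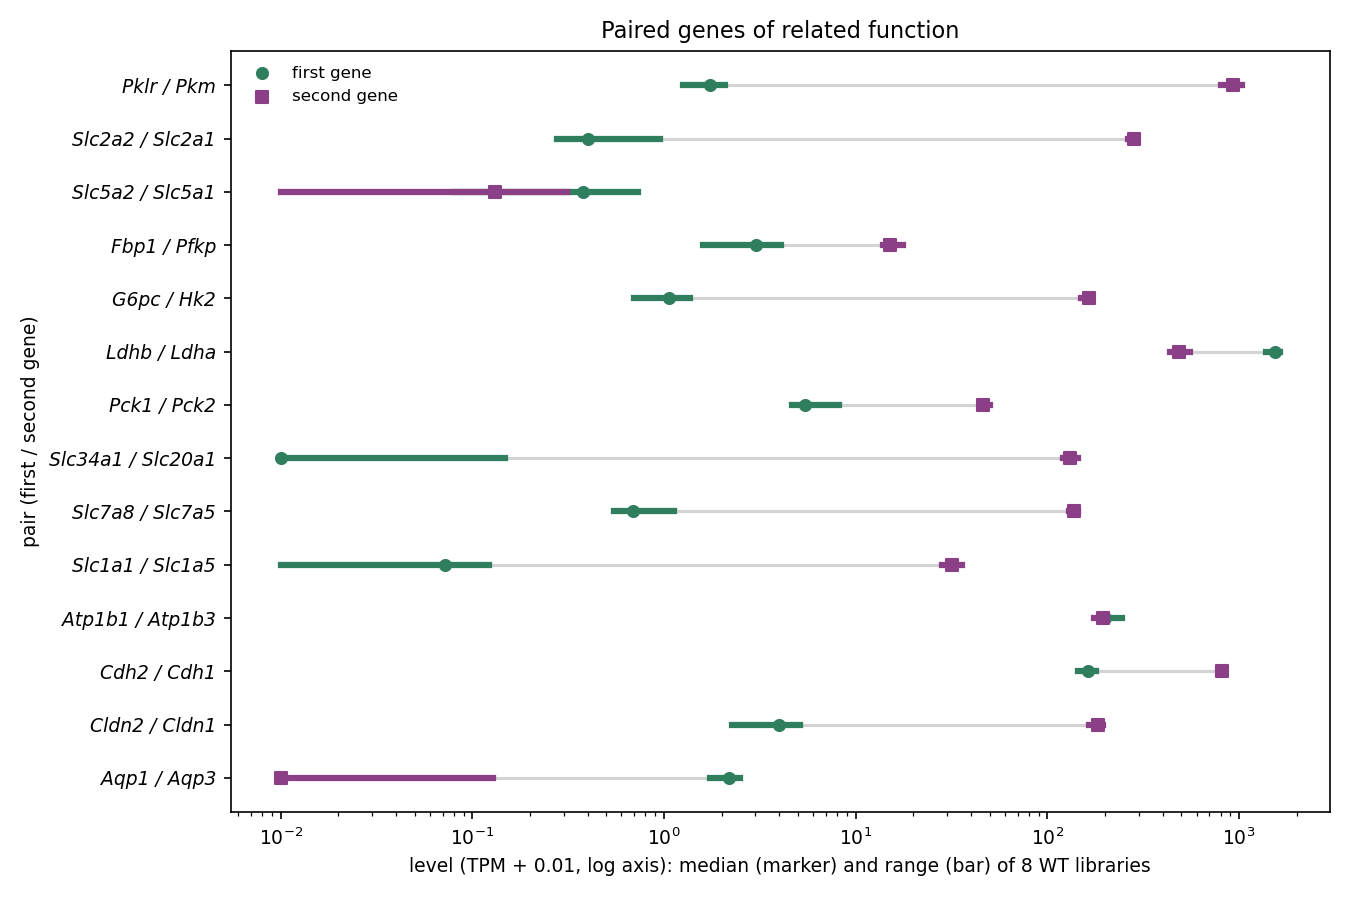
Levels of 14 of the 18 pairs of genes (y axis), as TPM + 0.01 on a log axis (x axis). Markers are medians and bars the range over the 8 WT libraries, circles for the first gene of a pair and squares for the second. Pkm, Slc2a1 and Hk2 lie far to the right of Pklr, Slc2a2 and G6pc, and Ldhb lies to the right of Ldha.

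Transcription factors of the nephron were largely present, with 19 of 27 detected and a median of 7.35 TPM. Pax8, a factor of the renal lineage, was at 118, 122, 111 and 111 CPM in the Male WT libraries and 129, 134, 130.2 and 129 CPM in the Female WT libraries. Cux1 was at 369.7 to 399 CPM (median 384) and Irx2, which marks the mid-nephron, at 42.8 to 54.1 CPM (median 48.9). Hnf4a, the factor that drives proximal tubule maturation, was at 1.13, 1.06, 0.846 and 0.583 CPM in the Male WT libraries and 0.979, 0.756, 0.891 and 0.804 CPM in the Female WT libraries. It was above 1 CPM in 2 of the 8 libraries. Nr1h4, the bile acid receptor, was at 0.161 to 0.356 CPM (median 0.274), and Eya1, a factor of nephron progenitors, at 0.540 to 1.06 CPM (median 0.799). Foxi1, the factor of intercalated cells, had no count in any library. Other factors known from the distal nephron and collecting duct were detected. Tfcp2l1 was at 98.7 to 122 CPM (median 105) and Pou3f3 at 40.1 to 57.7 CPM (median 46.1). Gata3 was at 33.4 to 44.9 CPM (median 37.7) and Tfap2b at 30.4 to 37.3 CPM (median 35.3). Pax8 was thus above 100 CPM in every library, while Hnf4a was under 10 CPM in every library.

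**Figure D4:**
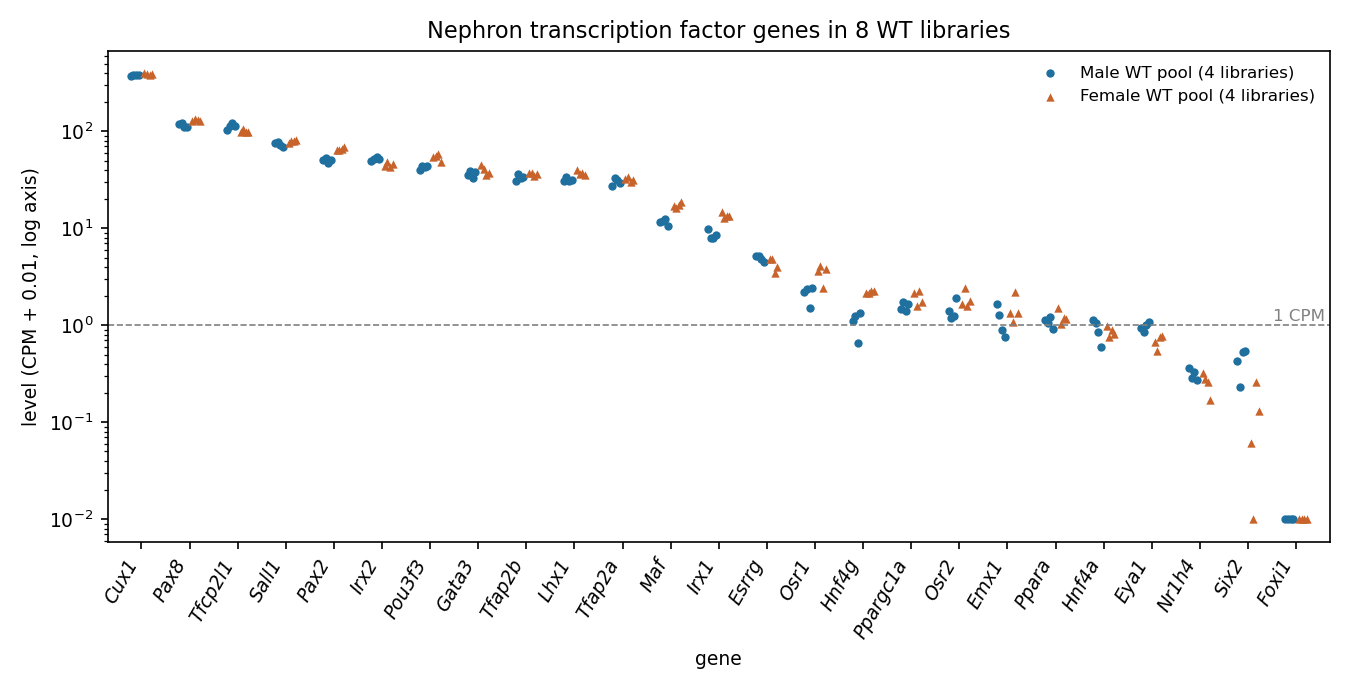
Levels of 25 of the 27 nephron transcription factor genes (x axis, ordered by median) in each of the 8 WT libraries, as CPM + 0.01 on a log axis. Each point is 1 library, circles for the Male WT pool and triangles for the Female WT pool. Pax8 lies between 111 and 134 CPM and Hnf4a between 0.583 and 1.13 CPM.

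Genes of tubule injury and dedifferentiation had the highest median of the function and state lists, 710.4 TPM, and all 26 of 26 were detected. After Spp1 and Clu, the highest were Krt8 and Krt18. Havcr1, which encodes the injury marker KIM-1, was at 118, 152, 119 and 121 CPM in the Male WT libraries and 105, 114, 111 and 111 CPM in the Female WT libraries. Krt20 was at 26.8 to 39.7 CPM (median 32.5), Lgals3, the lectin galectin 3, at 18.4 to 38.1 CPM (median 26.5), and Vcam1, an adhesion molecule of injured tubules that fail to repair, at 8.86 to 21.6 CPM (median 14.4), the lowest of the list. Of the 26 genes, 22 exceeded 100 CPM in every library.

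The 24 cell cycle genes were all detected, with a median of 39.0 TPM. The highest members by TPM hold back or start the cycle. Cdkn1a, the inhibitor p21, was at 655 to 708 CPM (median 687) and Ccnd1, cyclin D1, at 619 to 875 CPM (median 731). Cdkn2b and Cdkn2a, further inhibitors, were at 105 to 136 CPM (median 123) and 26.6 to 38.6 CPM (median 33.6). The lowest members by TPM were Bub1, a mitotic checkpoint kinase, at 11.3 to 18.1 CPM (median 14.2), Ccnb1, cyclin B1, at 9.38 to 16.3 CPM (median 13.4) and Tyms, the thymidylate synthase, at 12.7 to 16.8 CPM (median 14.6).

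Epithelial junction genes were detected in 21 of 22 cases, with a median of 173 TPM. Cldn4, a sealing claudin known from the distal nephron, was at 1188, 1143, 1125 and 1133 CPM in the Male WT libraries and 1256, 1267, 1234 and 1248 CPM in the Female WT libraries, the 25th gene by TPM. Cldn4 made up 66.5% of the summed TPM of the 23 claudin genes, of which 11 were detected. Cdh1 was at 866 to 908 CPM (median 881), Epcam, an adhesion molecule of simple epithelia, at 289 to 344 CPM (median 314), and Jup, the junction linker plakoglobin, at 583 to 664 CPM (median 616). The lowest were Marveld2, the tricellulin of corners between cells, at 35.1 to 43.9 CPM (median 38.1), Cdh6 at 34.0 to 47.1 CPM (median 44.2) and Cldn10, a claudin of the tubule, at 0 to 0.321 CPM (median 0.0743). The proximal tubule claudin Cldn2 was at 1.81, 2.11, 2.74 and 2.54 CPM in the Male WT libraries and 4.02, 3.94, 4.06 and 3.50 CPM in the Female WT libraries. Per length this was 3.90 TPM, against 2767 TPM for Cldn4.

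Matrix genes were all detected (28 of 28), with a median of 337 TPM and 26 above 100 CPM in every library. Beside Fn1, Thbs1 and Ctgf, Sparc, a matrix glycoprotein, was at 1749 to 2124 CPM (median 1922). Among the 44 collagen genes 26 were detected, led by Col1a1 (1195 TPM), Col4a1 (729 TPM), Col18a1 (704 TPM), Col1a2 (503 TPM) and Col4a2 (471 TPM). Col1a1 and Col1a2 are chains of fibrillar collagen I and Col4a1 and Col4a2 of basement membrane. The lowest of the matrix list were Col12a1, Col6a1 and Tgfbi, at 177 to 257 CPM (median 211), 9.67 to 13.8 CPM (median 12.8) and 1.0 to 2.92 CPM (median 1.53). Inflammation genes were detected in 16 of 19 cases, with Csf1, the macrophage growth factor, at 391 to 433 CPM (median 417), Nfkbia, the inhibitor of NF-kappa-B, at 33.3 to 51.1 CPM (median 41.2), Il34 at 24.9 to 31.1 CPM (median 28.8) and C3 at 44.9 to 61.5 CPM (median 50.9). Il1b, Cxcl5 and Cxcl2 were at 0.0515 to 0.648 CPM (median 0.121), 0.636 to 1.62 CPM (median 1.37) and 1.60 to 2.94 CPM (median 2.17).

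Of 48 keratin genes 8 were detected, and Krt8, Krt18, Krt19, Krt7 and Krt17 led with 3584, 3402, 743, 678 and 319 TPM. Krt7 and Krt19 are keratins of ducts and of the collecting system. Of 23 cadherin genes 13 were detected. Cdh1 held 47.3% of their summed TPM, and Cdh16, a kidney-specific cadherin, was at 235 to 316 CPM (median 259.9). Cdh3 and Cdh11 were at 210.4 to 269.6 CPM (median 243) and 246 to 367 CPM (median 305).

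To show regulatory sequence beside these levels, the 250 bases before each gene's start were searched on both strands for a pair of motifs, chosen, like the genes printed, after the levels were seen. A match is a run of letters and says nothing about binding. Neither motif contains the other. The motif of HNF4, searched as CAAAGTCCA, was found in 4 of 114 tubule function genes with a window (3.51%), Aadat, Agxt2, Slc3a1 and Treh, against 0.451% of all 27025 genes with a window. It was found in 0 of 71 of the 100 genes with the highest TPM and in 5 of 1666 genes at 100 CPM or more in every library (0.30%). In choosing those 100, predicted, cDNA-clone and date-like names, Xist and Y-linked genes were passed over. The AP-1 motif, TGANTCA, was found in 8 of 114 (7.02%), in 7 of 71 of the 100 genes with the highest TPM (9.86%) and in 91 of 1666 genes at 100 CPM or more (5.46%), against 7.82% of all genes. AP-1 joins Jun and Fos family proteins, and Junb, Jund and Fosl2 were at 357 to 377 CPM (median 369), 266 to 302 CPM (median 287) and 271 to 315 CPM (median 287), while Fos was at 6.44 to 8.86 CPM (median 7.49). Windows of 2 genes at opposite ends of the range are printed from RefSeq (GRCm38.p6), 5′ to 3′ on the gene's own strand, with the motif in capitals. Treh, with 2 counts over all libraries, lies on the plus strand, and its window is chr9:44672983-44673232, with the reverse complement of the HNF4 letters. Cldn4, with 2767 TPM, lies on the minus strand, and its window is chr5:134946935-134947184, with 2 AP-1 matches.
Treh: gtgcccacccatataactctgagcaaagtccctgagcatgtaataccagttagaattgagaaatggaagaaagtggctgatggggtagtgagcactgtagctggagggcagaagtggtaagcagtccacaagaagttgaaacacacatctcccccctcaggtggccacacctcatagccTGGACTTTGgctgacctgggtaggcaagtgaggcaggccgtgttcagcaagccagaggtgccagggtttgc
Cldn4: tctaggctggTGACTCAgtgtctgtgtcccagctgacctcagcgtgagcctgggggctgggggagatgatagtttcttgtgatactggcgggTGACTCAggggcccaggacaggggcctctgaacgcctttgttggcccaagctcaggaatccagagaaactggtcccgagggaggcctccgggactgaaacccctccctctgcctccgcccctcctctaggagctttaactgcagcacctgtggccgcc

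Markers of other cell types were counted on 17 lists with 128 listed genes, of which 59 (46.1%) were detected, against 49.9% of all listed genes. Without 3 collagen genes that the matrix list also holds, 56 of 125 were. Podocyte genes were the most complete list, with 10 of 10 detected. Podocytes are the filtering cells of the glomerulus. Podxl, the anionic coat protein podocalyxin, was at 210.5, 203, 222 and 208 CPM in the Male WT libraries and 110.0, 111, 119 and 109.5 CPM in the Female WT libraries. Nphs1, nephrin of the slit diaphragm, was at 6.38, 7.12, 5.84 and 6.52 CPM in the Male WT libraries and 1.80, 2.43, 3.12 and 1.93 CPM in the Female WT libraries. Wt1, a factor of podocytes and of nephron progenitors, was at 38.6, 35.4, 38.4 and 35.1 CPM in the Male WT libraries and 27.0, 25.8, 27.6 and 31.6 CPM in the Female WT libraries. Nes, nestin, which other cells also make, was highest at 795 to 1068 CPM (median 927), and Synpo, the actin linker synaptopodin, and Cdkn1c were at 139 to 161 CPM (median 155) and 26.7 to 34.3 CPM (median 31.0). The summed level of the list was 1102 ± 42.2 TPM in Male WT and 816 ± 27.9 TPM in Female WT. The part of podocyte RNA in the levels of the tubule lists was not tested.

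Contractile and vascular markers were present at different heights. In the list of smooth muscle and pericytes 8 of 10 were detected, with Tagln, Acta2, Cnn1 and Des at 1339.5 to 1504 CPM (median 1481), 1459 to 1666 CPM (median 1620.0), 144 to 183 CPM (median 166) and 86.8 to 143 CPM (median 116). Pdgfrb, the pericyte growth factor receptor, was at 58.3 to 101 CPM (median 83.9), Myh11, the smooth muscle myosin, at 19.6 to 38.0 CPM (median 28.5), Rgs5 at 0.810 to 3.99 CPM (median 1.86), and Ren1, renin, had no count. The summed level of this list was 6368 ± 214 TPM in Male WT and 6874 ± 45.7 TPM in Female WT. Endothelial genes were detected in 10 of 14 cases, all under 10 CPM in at least 1 library. Cdh5, the cadherin of vessel walls, was at 5.93 to 22.1 CPM (median 13.9), Emcn, endomucin, at 7.77 to 27.2 CPM (median 17.7), Esam at 2.47 to 7.77 CPM (median 5.31) and Plvap at 1.29 to 4.79 CPM (median 3.23), and Vwf, von Willebrand factor, at 0.495 to 2.46 CPM (median 1.38). The summed level of the endothelial list was 91.0 ± 2.61 TPM in Male WT and 41.0 ± 2.87 TPM in Female WT. Of the fibroblast genes 8 of 11 were detected, 3 of them collagens of the matrix list. Postn, periostin, was at 25.7 to 44.6 CPM (median 34.7), and Dcn, decorin, at 0.297 to 0.723 CPM (median 0.517), while Dpt and Lum were at the floor or under in every library, with 17 and 6 counts over all 8. Pdgfra, the platelet-derived growth factor receptor alpha, was at 3.02 to 9.34 CPM (median 5.54), Mfap5 at 3.76 to 5.96 CPM (median 4.39), Cd34 at 3.25 to 6.02 CPM (median 4.19) and Fbln1, fibulin 1, at 1.19 to 2.25 CPM (median 1.87). The collagens Col1a1, Col1a2 and Col3a1 had 1195, 503 and 96.0 TPM. Of the 11 fibroblast genes, Dcn, Lum and Dpt were thus the 3 that were not detected. The part of any of these cell types in the levels of matrix and contractile genes was not tested.

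Of the other nephron segments, collecting duct principal cells had 4 of 9 markers detected, Hsd11b2, an enzyme that shields the mineralocorticoid receptor, at 26.4 to 37.4 CPM (median 31.4) and the sodium channel subunits Scnn1a, Scnn1b and Scnn1g at 28.5 to 49.6 CPM (median 39.2), 3.34 to 5.94 CPM (median 3.94) and 1.57 to 4.80 CPM (median 3.48). Aqp2, the water channel that defines principal cells, had 1 count over all libraries, Aqp3 had 3 and Fxyd4 had 8. Thick ascending limb had 2 of 7 detected, Cldn19 at 5.25 to 13.7 CPM (median 9.46) and Cldn16 at 1.01 to 2.75 CPM (median 1.86), and its defining genes Slc12a1, the target of loop diuretics, and Umod, uromodulin, were at 0.334 to 1.33 CPM (median 0.826) and 0.201 to 0.979 CPM (median 0.648). Distal convoluted tubule had 2 of 6 detected, Trpm6, a magnesium channel, at 28.9 to 36.4 CPM (median 33.2) and Klhl3 at 1.21 to 2.16 CPM (median 1.73), with Slc12a3 at 0.201 to 0.643 CPM (median 0.411). None of the 8 intercalated cell genes and none of the 6 urothelial genes were detected. Mesothelial genes were detected in 2 of 4 cases, Msln, mesothelin, at 50.9 to 80.8 CPM (median 64.6) and Upk3b at 2.43 to 4.16 CPM (median 3.02).

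Markers of blood cells were low or at 0. Macrophage genes were detected in 7 of 12 cases, none above 10 CPM in all libraries, with a summed level of 75.8 ± 6.54 TPM in Male WT and 134 ± 9.91 TPM in Female WT. Lyz2, lysozyme, was at 3.76 to 13.1 CPM (median 8.07), Cd14 at 5.88 to 8.30 CPM (median 6.96), Cd68 at 3.66 to 5.23 CPM (median 4.63) and C1qa at 1.41 to 4.86 CPM (median 2.79), and Ptprc, the common leukocyte antigen CD45, at 0.712 to 2.03 CPM (median 1.15), Adgre1 at 0.121 to 1.39 CPM (median 0.626) and Itgam at 0.685 to 3.02 CPM (median 1.55). None of 8 lymphocyte genes, 3 listed neutrophil genes or 6 red cell genes were detected, and Hba-a1, Hba-a2, Hbb-bs and Hbb-bt had no count, with near-identical copies making these zeros uncertain. Their part in the tubule levels was not tested.

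**Figure D5:**
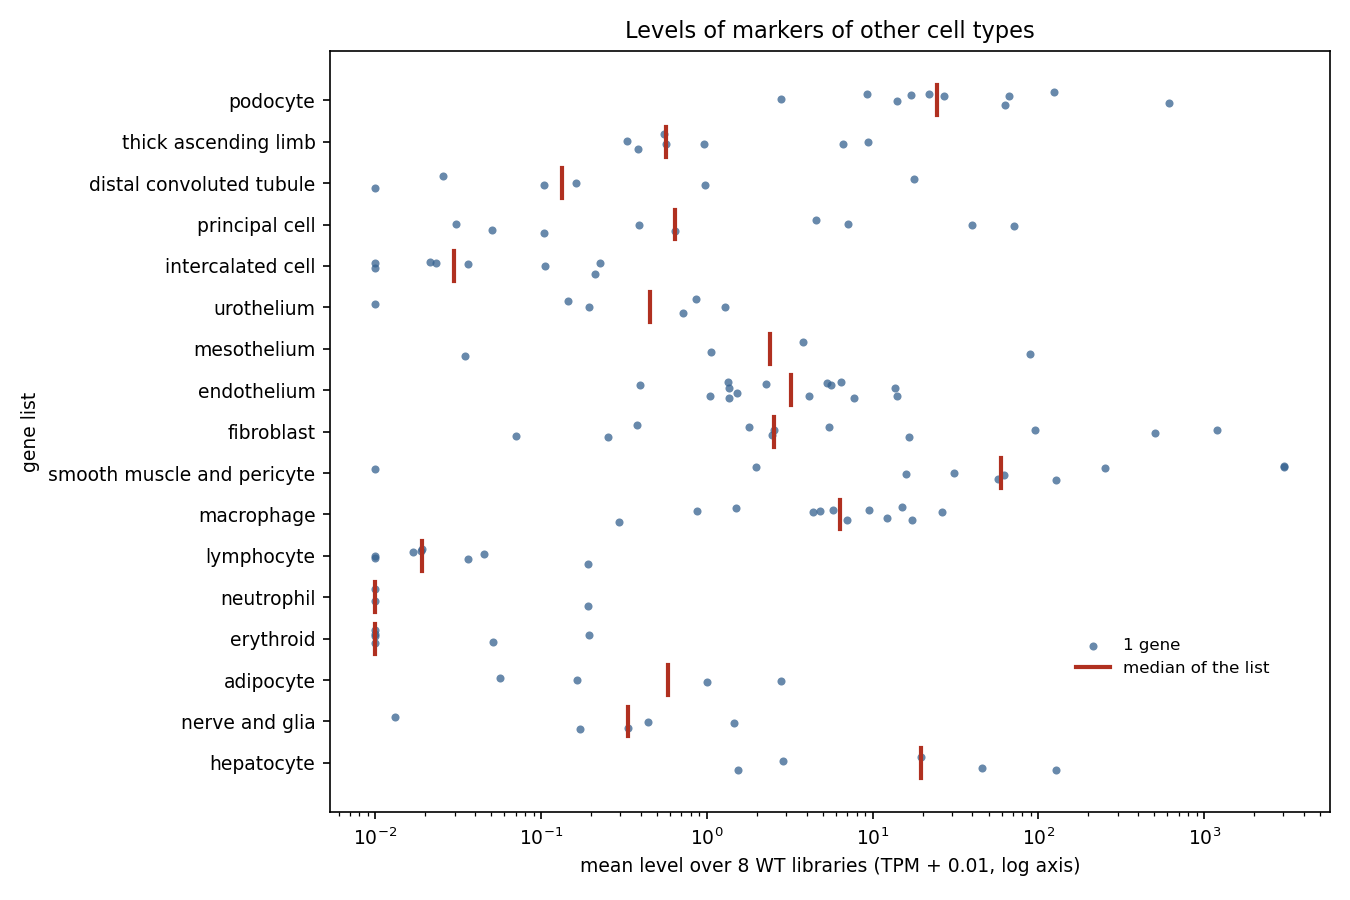
Mean level over the 8 WT libraries, as TPM + 0.01 on a log axis (x axis), of marker genes of 17 other cell types (y axis). Each point is 1 gene and the bar is the median of the list. All 10 podocyte genes lie above 1 TPM, whereas all red cell, neutrophil and lymphocyte markers lie under 1 TPM.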

How the data were processed

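The measurements start from a deposited table of counts (whole numbers, 1 row per gene symbol) and a deposited table of CPM. Per the submitters' processing notes the authors used STAR 2.6.1, featureCounts, edgeR 3.26.8, limma 3.40.6 and the build mm10. Which annotation and strand setting featureCounts had is not given in the sources used here, so overlapping and antisense genes cannot be told apart. The deposited CPM equal the counts over their library total to within 1e-06. Only the 8 WT columns were read.

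TPM were computed in Python 3.11.15 (pandas 2.3.3) from counts and the merged exon length of GENCODE M21, which gave 23978 of 24421 genes a length (98.2%). The TPM levels and the detection at 1 CPM were checked on simulated data. Those data were drawn with the same exon lengths, so they do not test the lengths, and pair ratios were not simulated. TMM factors (edgeR 4.0.16, R 4.3.3) were an alternative scaling. No test between groups was made, since no groups were compared, and Dixon's test was used only to look for a library apart from its pool. Other alternatives were detection levels of 0.5 and 5 CPM, other lengths, and leaving out each library.

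The 423 entries of 36 gene lists, the 18 pairs and the members described were chosen with earlier results of these data known. Named genes are the first 25 by TPM and the next 10 outside ribosomal proteins and elongation factors, up to 4 highest and 3 lowest of each list, both genes of a pair, the 7 label markers and the first 5 of a gene family. Further genes, such as Junb, Jund, Fosl2, Fos, and members named to describe a list more fully, were chosen after their values were seen. Malrd1 and mitochondrially encoded genes were not analysed here, and some genes of the lists and pairs are not reported here and not drawn by name, though the counts and medians of lists and pairs include them.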

Additional observations from a re-analysis of the deposited data

Results flagged for a closer look

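Dixon's test on 45 measures in each pool, 90 groups of 4 libraries in all, set 1 library apart from the others of its pool, where chance alone flags about 1 in 20. The share of counts in the 100 most abundant genes was 20.5397% in Female WT replicate 4, against 20.4295% to 20.4437% in the other 3 Female WT libraries.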

How the results depend on the processing

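The 12193 detected genes became 12867 at a level of 0.5 CPM and 10360 at 5 CPM, the 81 function genes became 91 and 55, and 11 pairs went the same way with every length used. At a detection level of 5 CPM, segment markers fell from 8 to 4 and markers of other cell types from 59 to 33. As a share of TPM, with the 100 most abundant genes taken by TPM in each library, those genes held 23.7%. With no filter on low values the median correlation was 0.997. Both differ from the main measure in the genes they take in. TMM scaling left 12189 detected genes and 80 of the function genes. Leaving out each replicate in turn gave 12207 to 12223 detected genes, 81 to 83 function genes, 8 segment markers in every case, 59 to 61 markers of other cell types and a share of 20.6%. Within the libraries of the Male WT pool alone, chosen after seeing the data, 85 function genes and 64 markers of other cell types were detected, and within the Female WT pool alone 82 and 62. No paired analysis was possible because no groups were compared and replicate numbers mark technical replicates of different pools.

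Depth limits genes near 3 counts. For some genes given in CPM, such as Slc5a2, Pdzk1 and Slc47a1, the value of a library can rest on 3 counts or fewer. Each pool is 1 mixture of cells, so nothing here covers variation between mice or cultures. The annotation behind the exon lengths is GENCODE M21, and the one used in counting is not given in the sources used here.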

Other observations

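Gene families scanned by symbol add detail on transport and adhesion. Of 335 Slc genes 188 were detected, and the highest per length were the mitochondrial carriers Slc25a5, Slc25a4 and Slc25a3 (482, 396 and 329 TPM). With them stood Slc4a11, a membrane carrier of the bicarbonate carrier family (336 TPM), and Slc39a7, a zinc carrier (329.9 TPM). Of 50 Abc genes 26 were detected, and of the first 5, Abcc4 (220.3 TPM) is a pump, while Abcf2, Abce1, Abcf1 and Abcf3 act in translation and carry no substrate across a membrane. Of 95 Cyp genes 16 were detected, led by Cyp1b1 at 136 to 206 CPM (median 172) and Cyp51, the sterol demethylase, at 109 to 127 CPM (median 117). Aqp1 alone of 11 Aqp genes was detected. Of 24 integrin genes 18 were detected, and Itgb1 held 60.8% of their summed TPM, followed by Itga3, Itga5, Itgb5 and Itgav (1049.8, 499, 418 and 256 TPM).

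Transcripts known best from hepatocytes were detected in 4 of 5 cases. Alb, serum albumin, was at 89.5, 76.3, 62.9 and 66.4 CPM in the Male WT libraries and 78.6, 62.4, 62.1 and 71.4 CPM in the Female WT libraries. Apoa1, an apolipoprotein, was at 11.4 to 15 CPM (median 13.8), Ttr, transthyretin, at 3.86 to 6.34 CPM (median 5.83), Apob at 3.29 to 5.86 CPM (median 5.29) and Serpina1a at 0.756 to 1.53 CPM (median 1.27). Serpina1a has near-identical copies, which makes its count uncertain. Of 4 adipocyte genes 1 was detected, Fabp4 at 2.08 to 4.59 CPM (median 2.57).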
